A study of Homo sapiens with 6 samples.

Results

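The genes described here are 49 genes of the mitotic kinetochore and spindle, measured in MCF10A cells. They were found by symbol among the 20802 genes that the assay covers, from a list chosen with earlier results of these data known. All 49 were found and all 49 passed edgeR's filter on low counts, which kept 11779 genes, so that no member is missing from the counts below. They comprise 11 kinetochore genes, 6 of the spindle checkpoint, 4 of the chromosomal passenger complex, 7 mitotic cyclins and kinases, 8 kinesins, 6 of spindle assembly, 2 of chromosome structure, 3 of transcription and proteolysis and 2 of cytokinesis. They lie on 18 chromosomes.

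MCF10A is an established, benign human mammary epithelial cell line. The study compared the parental line, labelled wt, with 2 stably transfected derivatives. The eGFP line carries a bicistronic plasmid with eGFP alone, and the GIRK1 line carries the same plasmid with the coding sequence of human KCNJ3 before the eGFP, so eGFP is shared by both and GIRK1 is expressed from a plasmid, not from its own locus. KCNJ3 encodes GIRK1, a subunit of G-protein-activated inwardly rectifying potassium channels. Both derivatives were given medium with G418 after transfection and were isolated by sorting on green fluorescence, and all cells were taken before they were confluent. There were 2 libraries per line, and nothing in the labels says whether replicates were separate cultures, so the p-values measure only the spread between these libraries, which may be technical.

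When a cell enters mitosis, kinetochores are built on the centromeres, microtubules of the spindle attach to them, and a checkpoint holds back anaphase until every chromosome is attached. Cyclin-dependent kinase 1, Polo-like kinase and the Aurora kinases drive these steps, kinesins move and shape the microtubules, and the anaphase-promoting complex ends them by marking cyclin B and securin for destruction. Transcripts of many of these genes are made late in the cell cycle, under control of the DREAM and MuvB complexes and of FOXM1, and are commonly read as a proliferation signature in breast tissue.

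The assay amplifies 1 short amplicon per gene from cDNA and counts the reads that map to it. Levels are given as RPM, the read count scaled to the library total so that every library has the same sum. A count per amplicon does not scale with transcript length but depends on how well the amplicon amplifies, so levels are compared between libraries for 1 gene and not between genes. Totals ran from 2506120 reads in wt replicate 1 to 16040556 in wt replicate 2. At the median member, the 95% exact binomial interval reached between 8.61% (wt replicate 2) and 16.2% (wt replicate 1) of the count, averaged over both sides. Such intervals hold counting error alone, because reads of a PCR product do not each stand for a molecule. KCNJ3 was read at 217 and 355 RPM in the GIRK1 libraries and had 0 reads in both eGFP libraries and in wt replicate 2, where 3 reads correspond to between 0.187 and 0.585 RPM. The library labelled wt replicate 1 had 48 KCNJ3 reads (19.2 RPM). In that library the 12 basal mammary markers summed to 402 RPM, with KRT6A, KRT14, KRT17, TP63 and S100A2 at 0, against 15860 to 35746 RPM in the other 5 libraries, where TP63 alone was at 0. The 12 luminal markers summed to 19195 RPM there, against 532 to 1029 RPM in the others, where ESR1, KRT19, TFF1, TFF3 and PGR were at 0. The labelled cell type thus went against the markers in the library labelled wt replicate 1, which is shown apart. It is left out of the main fit and enters only descriptions and the alternative fits that name it. Leukocyte and stromal markers summed to 16.0 to 66.8 RPM in all 6 libraries, with PTPRC, CD3E, VWF and CDH5 among those at 0 in every one. The GIRK1 libraries carry a tag in the deposited names that the other 4 do not, and if that tag names a run, the run cannot be told apart from the overexpression.

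The first question was whether mitotic transcripts differ between MCF10A cells that overexpress GIRK1 and cells with eGFP alone. Mean RPM was lower with GIRK1 than with eGFP for 47 of the 49 genes and higher for 2, CENPK (7.23 against 7.08) and CENPN (41.7 against 40.8). In both GIRK1 libraries 46 of the 49 genes lay below both eGFP libraries and wt replicate 2, against 19.3% of all 11779 genes tested, and 0 of the 49 lay above all 3, against 21.6%. The 3 others were the kinetochore genes CENPE, CENPK and CENPN. The median log2 fold change of the 49 genes, GIRK1 against eGFP, was -1.26 (2.40-fold lower), with 0.02 over all genes tested. In the fit, which scales the libraries, the log2 fold change ran from -2.52 for KIF20A to -0.02 for CENPK and -0.01 for CENPN, and 31 were at least 2-fold lower, against 8.35% of all genes. Summed over the 49 genes, 1439 and 1501 RPM were read in the GIRK1 libraries, 3513 and 3126 RPM in the eGFP libraries and 2905 RPM in wt replicate 2, so that the GIRK1 libraries did not overlap with the controls. These genes held 0.144% and 0.150% of the reads with GIRK1 and 0.291% to 0.351% in those 3 controls. Since the libraries are from bulk RNA, fewer cells in mitosis and less of each transcript per cell cannot be told apart.

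**Figure D1:**
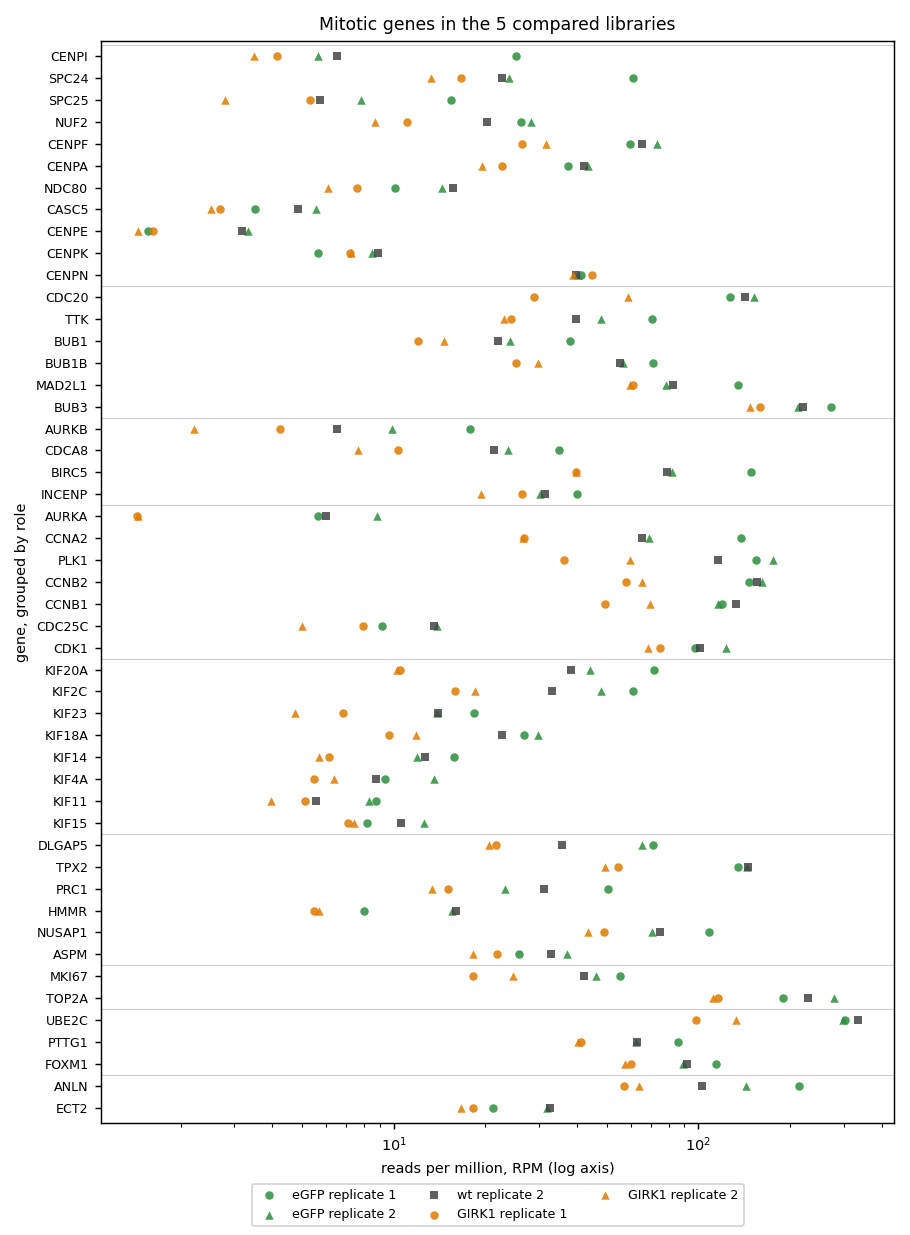
RPM of each of the 49 genes on a log axis, with one row per gene, grouped by role and ordered within each role by the log2 fold change of GIRK1 against eGFP; each point is 1 library. The orange GIRK1 points lie left of the green eGFP points and the grey wt replicate 2 point for 46 of the 49 genes, and CENPE, CENPK and CENPN are the 3 rows in which they mix.

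The test was edgeR's quasi-likelihood test on the read counts of 5 libraries (both eGFP, both GIRK1 and wt replicate 2), with Benjamini-Hochberg adjustment over all 11779 genes and a threshold of 0.05. In GIRK1 against eGFP 10 of the 49 genes fell at the adjusted threshold, against 0.84% of all genes tested, and 0 rose, against 0.756%. The 10 genes were KIF20A, DLGAP5, TPX2, CCNB2, KIF2C, PLK1, NUF2, UBE2C, ANLN and KIF18A. At an unadjusted p below 0.05, 43 of the 49 were lower (10.7% of all genes) and 0 higher (8.13%). The 6 genes beyond that level were CENPE, CENPK, CENPN, CASC5, INCENP and KIF15. By the rule of the study's methods, taken here as a 2-fold difference of mean RPM and a coefficient of variation under 0.7 in both lines, 28 of the 49 were lower (5.32% of all genes) and 0 higher (4.95%). The number of calls rested on single libraries. It was 2 without GIRK1 replicate 1 (1.06% of all genes tested in that fit), 3 without GIRK1 replicate 2 (0.617%), 30 without eGFP replicate 1 (4.65%) and 36 without eGFP replicate 2 (13.8%). When wt replicate 1 was added to the fit, it was 0 (0% of all genes).

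A second question was whether the same genes differ from the untransfected line, since eGFP and GIRK1 cells both went through transfection, selection and sorting. Against wt replicate 2 the GIRK1 libraries had a median log2 fold change of -0.97 over the 49 genes (1.96-fold lower), with 0.01 over all genes tested. It was negative for 48 of the 49, with CENPN (0.09, SE 0.26) as the exception, and 20 genes were at least 2-fold lower (4.28% of all genes). edgeR called 0 of the 49 at the adjusted threshold (0.034% of all genes). At an unadjusted p below 0.05, 26 were lower (3.62% of all genes) and 0 higher (3.76%), and DESeq2's test called 5 lower (0.382%). The smallest edgeR adjusted p was 0.0986, for TPX2. This comparison rests on a lone wt library that is assumed to vary like the other lines, and the number of edgeR calls was 25 without eGFP replicate 1 (2.43% of all genes in that fit) and 23 without eGFP replicate 2 (1.9%). It shares the GIRK1 libraries with the comparison to eGFP and is no independent repeat of it.

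Between the controls, eGFP against wt replicate 2, the median over the 49 genes was 0.27 (1.21-fold higher), with 0.01 over all genes tested, and the log2 fold change was positive for 38 genes. edgeR called 0 of the 49 in either direction at the adjusted threshold (0.0% of all genes) and DESeq2 called 0. At an unadjusted p below 0.05, 3 were higher in eGFP (2.15% of all genes) and 0 lower (1.4%). The 3 were DLGAP5, KIF2C and ANLN, with log2 fold changes of 0.998 (SE 0.27), 0.79 (SE 0.32) and 0.87 (SE 0.35), named here after their values were seen. Gene by gene, wt replicate 2 lay between the eGFP libraries for 22 genes, below both for 20 and above both for 7. Without eGFP replicate 2, 10 members were called higher, beside 6% of all genes in that fit.

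**Figure D2:**
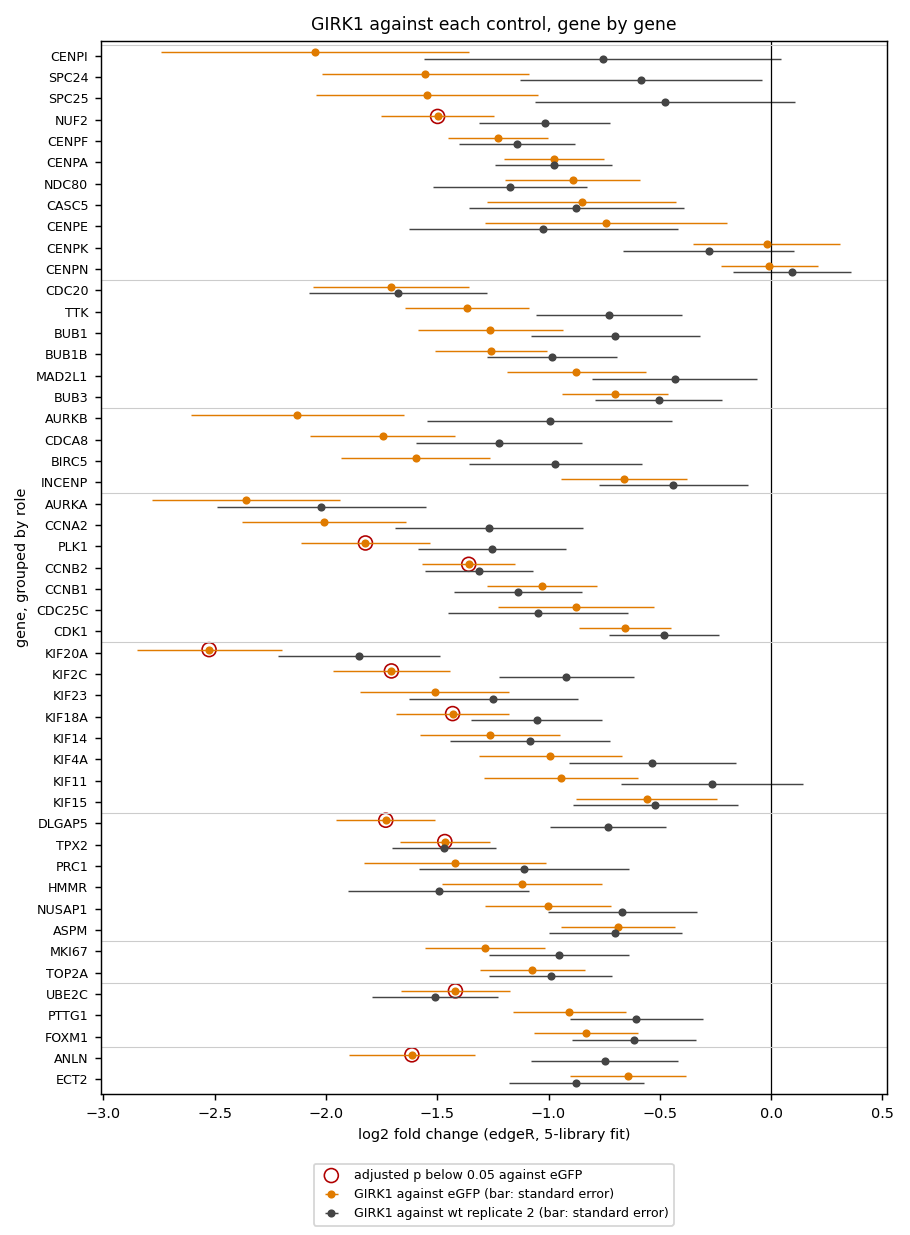
Log2 fold change of each of the 49 genes from the 5-library edgeR fit, GIRK1 against eGFP in orange and against wt replicate 2 in grey, with bars of 1 standard error; red rings mark the 10 genes with an adjusted p below 0.05 against eGFP. All orange points lie at or left of 0, CENPN and CENPK sit within their standard error of it, and KIF20A lies farthest left at -2.52.

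Mitotic promoters are known for pairs of short elements near the start site, a CCAAT box and a cell cycle genes homology region, so the RefSeq promoter windows of the members were searched for them. Windows of the GRCh38.p14 table matched 41 of the 49 genes by symbol, and CASC5, BUB3, TTK, BIRC5, AURKA, TPX2, FOXM1 and UBE2C had no entry. The letters CCAAT, on either strand, were present in the 250 bases before the start for 33 of the 41 genes (80.5%), against 37.0% of the 27305 genes of the table and 42.3% of the 8605 genes tested here that matched. The homology region, searched as TTTGAA and also in the form TTCGAA, on either strand, was present for 23 (56.1%), against 17.2% and 13.3%. Both were present for 20 (48.8%), against 6.24% and 5.46%. With the 50 bases after the start included, the homology region letters were present for 31 (75.6%) and both for 26 (63.4%), against 19.5% and 7.85% of the table. A gene with several start sites counts if any of its windows holds the letters, for members and for all genes alike, and a match is a description of letters and not a site shown to be bound.

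The 4 windows below stand for the 20 genes with both, chosen as the most negative in GIRK1 against eGFP among those with at most 30 bases of annotated UTR in the window. Each is 250 bases before the RefSeq start, 5′ to 3′ on the strand of the gene, with the letters of both elements, on either strand, in capitals. They are from chr1:43358731-43358980 (plus strand) for CDC20, chr10:128126424-128126673 (minus strand) for MKI67, chrX:70289854-70290103 (plus strand) for KIF4A and chr10:92592880-92593129 (plus strand) for KIF11.
CDC20: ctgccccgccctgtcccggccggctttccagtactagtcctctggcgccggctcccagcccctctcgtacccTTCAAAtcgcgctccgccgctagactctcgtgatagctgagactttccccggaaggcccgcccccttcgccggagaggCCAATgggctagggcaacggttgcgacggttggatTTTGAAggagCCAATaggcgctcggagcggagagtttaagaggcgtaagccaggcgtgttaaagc
MKI67: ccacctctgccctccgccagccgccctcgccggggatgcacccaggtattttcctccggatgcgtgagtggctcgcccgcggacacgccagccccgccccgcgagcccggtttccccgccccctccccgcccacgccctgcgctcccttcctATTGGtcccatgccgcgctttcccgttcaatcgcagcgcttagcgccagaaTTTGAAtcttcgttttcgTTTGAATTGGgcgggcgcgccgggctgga
KIF4A: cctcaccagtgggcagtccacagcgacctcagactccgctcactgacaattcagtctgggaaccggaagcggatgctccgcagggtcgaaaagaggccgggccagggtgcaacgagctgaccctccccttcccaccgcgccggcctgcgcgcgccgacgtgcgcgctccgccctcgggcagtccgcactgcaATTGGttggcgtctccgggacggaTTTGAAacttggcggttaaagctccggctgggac
KIF11: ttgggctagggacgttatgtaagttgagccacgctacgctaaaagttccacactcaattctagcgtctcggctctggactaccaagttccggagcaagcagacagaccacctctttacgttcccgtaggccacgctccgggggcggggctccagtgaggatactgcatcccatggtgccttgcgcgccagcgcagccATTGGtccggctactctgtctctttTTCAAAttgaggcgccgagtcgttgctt
CDC20 holds CCAAT boxes beginning 100 and 55 bases before the start and homology region letters at 178 and 65. In MKI67 the CCAAT boxes begin at 98 and 24 bases and the homology region letters at 47 and 29, and the nearest pair shares 1 base. KIF4A holds a single pair at 58 and 34 bases, and KIF11 a single pair at 53 and 28 bases. The GENCODE annotation begins CDC20 within its window (26 bases of UTR) and KIF4A within its window (14 bases), and the windows of MKI67 and KIF11 hold no annotated UTR.

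The mitotic cyclins and kinases drive entry into and passage through mitosis. All 7 lay below the 3 controls in both GIRK1 libraries (19.3% of all genes tested). Their median log2 fold change was -1.36 against eGFP and -1.26 against wt replicate 2. Of the 7, 2 fell at the adjusted threshold against eGFP, PLK1 and CCNB2 (0.84% of all genes). PLK1, the Polo-like kinase that acts at centrosomes, kinetochores and the midzone, lies on chromosome 16 from 23677656 to 23690367 (plus strand, GRCh38, GENCODE release 29, as for the other gene positions below). It was read at 36.1 and 59.7 RPM with GIRK1, at 155.1 and 175.7 RPM with eGFP and at 116 RPM in wt replicate 2. The GIRK1 libraries lay apart from each other but well below every control. Its log2 fold change was -1.82 (SE 0.29, edgeR adjusted p = 0.0375) against eGFP and -1.26 (SE 0.33, edgeR adjusted p = 0.384) against wt replicate 2. CCNB2, a B-type cyclin that activates cyclin-dependent kinase 1, lies on chromosome 15 from 59105078 to 59125045 (plus strand). It had 58.0 and 65.4 RPM with GIRK1, 147 and 161 RPM with eGFP and 156 RPM in wt replicate 2, so that the controls lay close together and the GIRK1 libraries far below. Its log2 fold changes were -1.36 (SE 0.21, edgeR adjusted p = 0.0339) and -1.31 (SE 0.24, edgeR adjusted p = 0.160).

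AURKA, the Aurora kinase of centrosomes and spindle poles, had the most negative value of this group, -2.36 (SE 0.42), yet its edgeR adjusted p was 0.0518. It had 1.44 and 1.45 RPM with GIRK1, 5.66 and 8.79 RPM with eGFP and 5.98 RPM in wt replicate 2, which makes it one of the least read members. CCNA2, cyclin A, needed in S phase and at mitotic entry, had 26.7 and 26.6 RPM with GIRK1, 137.7 and 68.9 RPM with eGFP and 65.1 RPM in wt replicate 2. The eGFP libraries lay far apart for CCNA2, and its log2 fold change of -2.01 (SE 0.37) had an edgeR adjusted p of 0.0558. CDK1, the kinase that all of these steps depend on, was the least different of the group. It had 75.1 and 68.1 RPM with GIRK1, 97.1 and 123 RPM with eGFP and 101 RPM in wt replicate 2, a log2 fold change of -0.66 (SE 0.21, edgeR adjusted p = 0.167). CCNB1 and CDC25C, the main B-type cyclin and a phosphatase that activates CDK1, had log2 fold changes of -1.03 (SE 0.25) and -0.87 (SE 0.35).

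The kinetochore genes encode the structure that links centromere and microtubule. Of the 11, 8 lay below the 3 controls in both GIRK1 libraries (19.3% of all genes tested). The median log2 fold change was -0.98 against eGFP and -0.87 against wt replicate 2. NUF2 alone fell at the adjusted threshold (0.84% of all genes). NUF2, a subunit of the NDC80 complex that binds microtubules, lies on chromosome 1 from 163266576 to 163355764 (plus strand). It had 11.1 and 8.70 RPM with GIRK1, 26.1 and 28.2 RPM with eGFP and 20.3 RPM in wt replicate 2. In the fit, the gene had a log2 fold change of -1.50 (SE 0.26, edgeR adjusted p = 0.0451) against eGFP and -1.02 (SE 0.29, edgeR adjusted p = 0.442) against wt replicate 2. SPC24, which anchors the same complex to the inner kinetochore, had 16.7 and 13.2 RPM with GIRK1, 60.9 and 23.8 RPM with eGFP and 22.8 RPM in wt replicate 2. There eGFP replicate 1 stood apart from the other controls, and the log2 fold change was -1.55 (SE 0.47, edgeR adjusted p = 0.153). CENPI, of the constitutive centromere network, showed this more strongly, with 25.2 and 5.67 RPM with eGFP, 6.55 RPM in wt replicate 2 and 4.14 and 3.48 RPM with GIRK1. Its log2 fold change was -2.05 with the largest standard error of the 49 genes, 0.69 (edgeR adjusted p = 0.186).

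The other subunits of the NDC80 complex, SPC25 and NDC80, had log2 fold changes of -1.55 (SE 0.50) and -0.89 (SE 0.30). CENPA, the centromeric histone, and CENPF, a large protein of the outer kinetochore, had -0.98 (SE 0.22) and -1.23 (SE 0.23), and CASC5, the scaffold on which the checkpoint proteins assemble, had -0.85 (SE 0.42). CENPN, which recognises nucleosomes with CENPA, was the member with the smallest difference. It had 44.7 and 38.7 RPM with GIRK1, 41.2 and 40.4 RPM with eGFP and 39.6 RPM in wt replicate 2, and the libraries of all 3 lines overlapped (log2 fold change -0.01, SE 0.22, edgeR adjusted p = 0.988). That sign turns positive under 3 of the other scalings or filters. The next 2 genes are described because they were the other exceptions, after their values were seen. CENPK, also of the centromere network, had 7.20 and 7.25 RPM with GIRK1, between the 5.66 and 8.50 RPM of the eGFP libraries (log2 fold change -0.02, SE 0.33). CENPE, the kinesin that carries chromosomes along microtubules to the metaphase plate, had 1.62 and 1.45 RPM with GIRK1, 1.56 and 3.32 RPM with eGFP and 3.18 RPM in wt replicate 2. The value in eGFP replicate 1 stands on 8 reads, with an interval from 0.674 to 3.07 RPM. A difference was thus not detectable for CENPE at this depth.

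The 6 genes of the spindle checkpoint, which keeps the anaphase-promoting complex inactive, all lay below the 3 controls in both GIRK1 libraries (19.3% of all genes). Their median log2 fold change was -1.26 against eGFP and -0.71 against wt replicate 2. None of the 6 passed the adjusted threshold, and all 6 had an unadjusted p below 0.05 against eGFP (10.7% of all genes lower). CDC20, the activator of the anaphase-promoting complex that the checkpoint holds back, had 28.9 and 58.7 RPM with GIRK1, 126.8 and 152.4 RPM with eGFP and 142.5 RPM in wt replicate 2. This is the 1 member whose GIRK1 libraries were over 2-fold apart, and its log2 fold change of -1.71 (SE 0.35) had an edgeR adjusted p of 0.0749. TTK, the kinase that starts checkpoint signalling, had 24.2 and 23.1 RPM with GIRK1, 70.2 and 48.0 RPM with eGFP and 39.8 RPM in wt replicate 2 (log2 fold change -1.37, SE 0.28, edgeR adjusted p = 0.0739). BUB3, which brings checkpoint proteins to the kinetochore, had the smallest difference from eGFP of the 6, with 159 and 148 RPM with GIRK1, 271 and 212 RPM with eGFP and 221 RPM in wt replicate 2. The fitted log2 fold change was -0.70 (SE 0.24, edgeR adjusted p = 0.187). BUB1 and BUB1B, a kinase and a kinase-like part of the inhibitor of CDC20, both had -1.26, with standard errors of 0.33 and 0.25, and MAD2L1, which binds CDC20 directly, had -0.87 (SE 0.31).

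The chromosomal passenger complex corrects faulty attachments and later guides cytokinesis. Its 4 genes all lay below the 3 controls in both GIRK1 libraries (19.3% of all genes tested). Their median log2 fold change was -1.67 against eGFP and -0.98 against wt replicate 2. Against eGFP, 0 of the 4 passed the adjusted threshold (0.84% of all genes lower). At an unadjusted p below 0.05, 3 were lower (10.7%). AURKB, its kinase, had 4.23 and 2.22 RPM with GIRK1, 17.8 and 9.87 RPM with eGFP and 6.55 RPM in wt replicate 2, and replicates of both lines were over 1.5-fold apart (log2 fold change -2.13, SE 0.48, edgeR adjusted p = 0.0901). CDCA8, or borealin, a targeting subunit, had 10.3 and 7.64 RPM with GIRK1, 34.9 and 23.7 RPM with eGFP and 21.3 RPM in wt replicate 2. Its log2 fold change was -1.74 (SE 0.33, edgeR adjusted p = 0.0574). BIRC5, or survivin, which docks the complex on chromatin, had -1.60 (SE 0.34). INCENP, the scaffold, had 26.3 and 19.4 RPM with GIRK1 and 40.0 and 30.2 RPM with eGFP, with 31.4 RPM in wt replicate 2 (log2 fold change -0.66, SE 0.28, edgeR adjusted p = 0.269).

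All 8 kinesins lay below the 3 controls in both GIRK1 libraries (19.3% of all genes tested). Their median log2 fold change was -1.35 against eGFP and -0.99 against wt replicate 2. KIF20A, KIF2C and KIF18A fell at the adjusted threshold against eGFP (0.84% of all genes). KIF20A, the kinesin that carries the chromosomal passenger complex to the central spindle, lies on chromosome 5 from 138178719 to 138187715 (plus strand). It had 10.5 and 10.2 RPM with GIRK1, 71.6 and 44.2 RPM with eGFP and 38.1 RPM in wt replicate 2. The GIRK1 libraries were nearly level, far below the lowest control. In the fit, the gene had a log2 fold change of -2.52 (SE 0.33, 5.75-fold lower, edgeR adjusted p = 0.0192) against eGFP and -1.85 (SE 0.36, edgeR adjusted p = 0.191) against wt replicate 2. KIF2C, which removes tubulin from microtubule ends at wrongly attached kinetochores, lies on chromosome 1 from 44739818 to 44767767 (plus strand). It had 15.8 and 18.6 RPM with GIRK1, 61.1 and 47.9 RPM with eGFP and 33.0 RPM in wt replicate 2, so that wt replicate 2 lay between the lines. Its log2 fold change was -1.71 (SE 0.26, edgeR adjusted p = 0.0350) against eGFP and -0.92 (SE 0.31, edgeR adjusted p = 0.554) against wt replicate 2.

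KIF18A, which damps chromosome movements at the metaphase plate, lies on chromosome 11 from 28020620 to 28108308 (minus strand). It had 9.63 and 11.9 RPM with GIRK1, 26.7 and 29.8 RPM with eGFP and 22.7 RPM in wt replicate 2. The fitted log2 fold change was -1.43 (SE 0.25), and its edgeR adjusted p, 0.04996, was the closest to the threshold among the 10 calls. KIF15, which helps to keep the spindle bipolar, was the kinesin with the smallest difference from eGFP, and KIF11 the one with the smallest from wt replicate 2 (-0.27, SE 0.41). KIF15 had 7.11 and 7.44 RPM with GIRK1, 8.19 and 12.6 RPM with eGFP and 10.6 RPM in wt replicate 2 (log2 fold change -0.56, SE 0.32, edgeR adjusted p = 0.375). KIF11, the motor that pushes the poles apart, had -0.94 (SE 0.35), and KIF4A, which acts on chromosomes and the central spindle, had -0.99 (SE 0.32). KIF14 and KIF23, both needed in cytokinesis, had -1.26 (SE 0.31) and -1.51 (SE 0.33).

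The 6 spindle assembly genes also lay below the 3 controls throughout (19.3% of all genes tested). Their median log2 fold change was -1.27 against eGFP and -0.92 against wt replicate 2. DLGAP5 and TPX2 fell at the adjusted threshold against eGFP (0.84% of all genes). TPX2, which activates AURKA and nucleates microtubules, lies on chromosome 20 from 31739271 to 31801805 (plus strand). It had 54.3 and 49.5 RPM with GIRK1, 135 and 144 RPM with eGFP and 146 RPM in wt replicate 2, and the 3 controls were nearly level. Its log2 fold change was -1.47 in both comparisons, with a standard error of 0.20 and an edgeR adjusted p of 0.0244 against eGFP, and 0.23 and 0.0986 against wt replicate 2. DLGAP5, which stabilises the microtubules that end at kinetochores, lies on chromosome 14 from 55148112 to 55191678 (minus strand). It had 21.6 and 20.6 RPM with GIRK1, 70.8 and 65.3 RPM with eGFP and 35.6 RPM in wt replicate 2. Here the eGFP libraries lay above wt replicate 2 (1.997-fold), and the log2 fold change was -1.73 (SE 0.22, edgeR adjusted p = 0.0192) against eGFP and -0.73 (SE 0.26, edgeR adjusted p = 0.582) against wt replicate 2. ASPM, a spindle pole protein, had 21.8 and 18.2 RPM with GIRK1, 25.7 and 36.9 RPM with eGFP and 32.9 RPM in wt replicate 2 (log2 fold change -0.69, SE 0.26, edgeR adjusted p = 0.218). PRC1, which bundles the midzone microtubules, had -1.42 (SE 0.41), HMMR, which acts at the poles, -1.12 (SE 0.36) and NUSAP1, which binds microtubules near chromosomes, -1.002 (SE 0.28).

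Both genes of chromosome structure were lower with GIRK1 but short of the adjusted threshold. TOP2A, the topoisomerase that untangles sister chromatids, had 116 and 112 RPM with GIRK1, 189 and 279 RPM with eGFP and 229 RPM in wt replicate 2 (log2 fold change -1.07, SE 0.23, edgeR adjusted p = 0.0845). MKI67, the Ki-67 proliferation marker that coats mitotic chromosomes, had 18.2 and 24.6 RPM with GIRK1, 55.2 and 46.2 RPM with eGFP and 42.1 RPM in wt replicate 2 (log2 fold change -1.28, SE 0.27, edgeR adjusted p = 0.0787). For both genes the GIRK1 libraries lay below the 3 controls (19.3% of all genes tested).

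Of the 3 genes of transcription and proteolysis, UBE2C fell at the adjusted threshold against eGFP (0.84% of all genes). UBE2C, the ubiquitin-conjugating enzyme that works with the anaphase-promoting complex, lies on chromosome 20 from 45812576 to 45816957 (plus strand). It had 98.3 and 133 RPM with GIRK1, 303 and 298 RPM with eGFP and 335 RPM in wt replicate 2. In the fit, the gene had a log2 fold change of -1.42 (SE 0.24, edgeR adjusted p = 0.0451) against eGFP and -1.51 (SE 0.28, edgeR adjusted p = 0.164) against wt replicate 2. FOXM1, a transcription factor of late cell cycle genes, had 60.3 and 57.4 RPM with GIRK1, 114 and 88.9 RPM with eGFP and 91.6 RPM in wt replicate 2 (log2 fold change -0.83, SE 0.24, edgeR adjusted p = 0.141). PTTG1, or securin, the inhibitor of separase, had 41.2 and 40.3 RPM with GIRK1, 85.4 and 62.5 RPM with eGFP and 63.0 RPM in wt replicate 2 (log2 fold change -0.91, SE 0.25, edgeR adjusted p = 0.137).

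For cytokinesis, ANLN, an actin-binding scaffold of the contractile ring, fell at the adjusted threshold against eGFP (0.84% of all genes). It lies on chromosome 7 from 36389806 to 36453791 (plus strand) and had 56.9 and 64.0 RPM with GIRK1, 214.2 and 143.2 RPM with eGFP and 103 RPM in wt replicate 2. Its log2 fold change was -1.61 (SE 0.28, edgeR adjusted p = 0.0489) against eGFP and -0.75 (SE 0.33, edgeR adjusted p = 0.687) against wt replicate 2. ECT2, the exchange factor that activates RhoA at the cleavage site, had 18.3 and 16.6 RPM with GIRK1, 21.3 and 31.9 RPM with eGFP and 32.5 RPM in wt replicate 2. The fitted log2 fold change was -0.64 (SE 0.26, edgeR adjusted p = 0.249), and its lowest control, eGFP replicate 1, was close to the GIRK1 libraries.

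**Figure D3:**
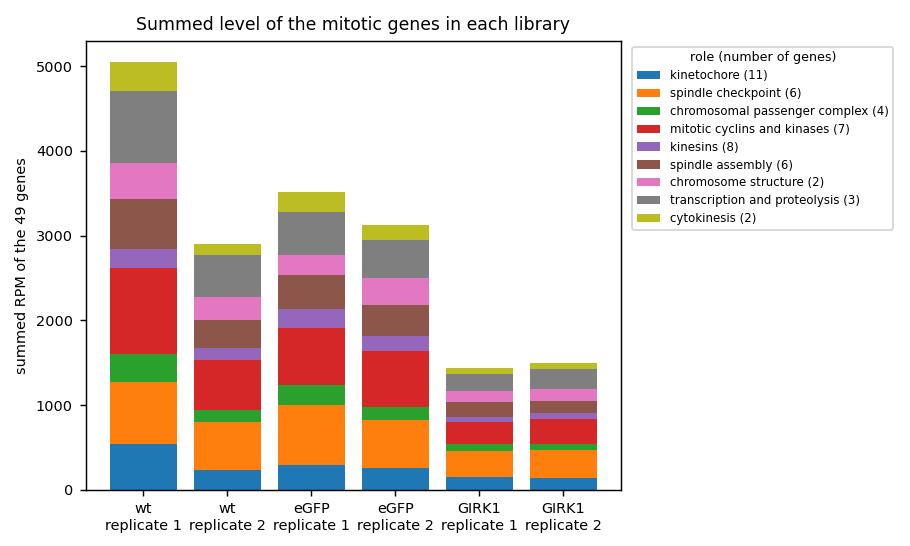
Summed RPM of the 49 genes in each of the 6 libraries, stacked by role. The GIRK1 bars reach 1439 and 1501 RPM, below the 2905 to 3513 RPM of wt replicate 2 and the eGFP libraries. The bar of wt replicate 1, which is left out of the main fit, reaches 5049 RPM.

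Replicates of the eGFP line differed more than those of the GIRK1 line for these genes. The eGFP replicates were over 1.5-fold apart for 18 members, 11 higher and 7 lower in replicate 1, and over 2-fold for 4, with ratios of replicate 1 to replicate 2 from 0.470 (CENPE) to 4.44 (CENPI) and a median of 1.06. GIRK1 replicates were over 1.5-fold apart for 5 members, 3 higher and 2 lower in replicate 1, and over 2-fold for 1, with ratios from 0.493 (CDC20) to 1.90 (AURKB) and a median of 1.05. The library of eGFP replicate 1 had the lower depth of that line (5126930 against 10233974 reads) and the highest sum of basal markers (35746 RPM). The part of depth and of these markers in the spread was not tested.

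**Figure D4:**
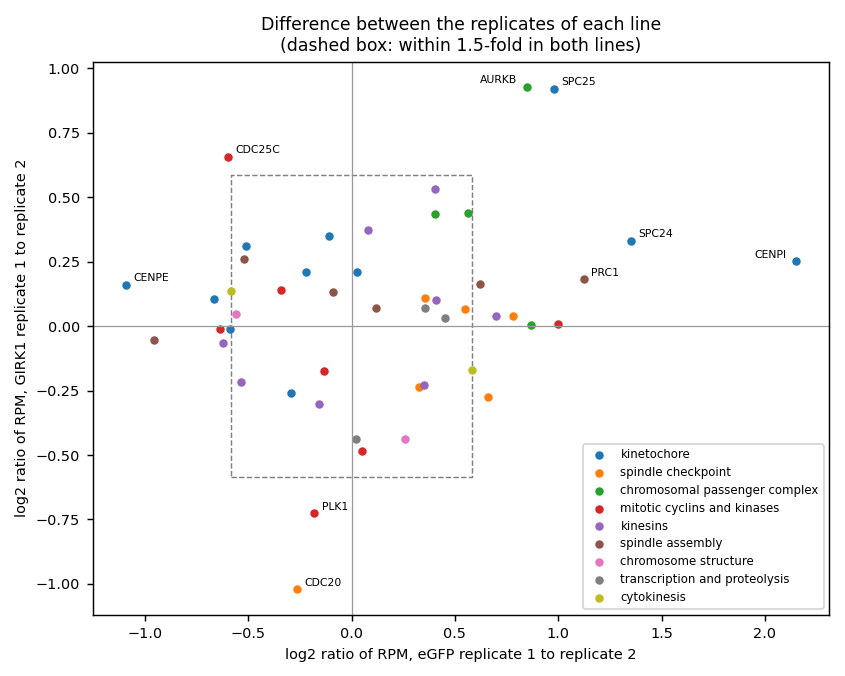
Log2 ratio of RPM between replicate 1 and replicate 2 for each of the 49 genes, eGFP on the horizontal and GIRK1 on the vertical axis, coloured by role; the dashed box holds genes within 1.5-fold in both lines. The points spread wider from side to side than from top to bottom, with CENPI far to the right at a ratio of 4.44 and CDC20 lowest at a ratio of 0.493.

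The library labelled wt replicate 1 had the highest sum over the 49 genes, 5049 RPM. It was above wt replicate 2 for 42 of them (48.9% of all genes tested) and below for 7, with ratios from 0.275 (CENPF) to 6.05 (SPC25) and a median of 1.85, beside 0.977 over all genes. It was at least 2-fold above wt replicate 2 for 22 genes (21.8% of all genes) and at least 2-fold below for 1 (25.1%). UBE2C had 678 RPM there, PLK1 303 RPM, BUB3 333 RPM, ANLN 246 RPM and MKI67 119 RPM. KIF20A, with 52.3 RPM, and TPX2, with 166 RPM, were nearer to the other controls. The 7 genes below wt replicate 2 were CENPF, NDC80, NUF2, CDC20, KIF11, HMMR and PTTG1, of which CENPF had 18.0 RPM against 65.2 RPM. Against the GIRK1 libraries it was above both for 46 genes (45.1% of all genes), below both for CENPF and PTTG1 and between them for KIF11 (4.79 RPM). Since this library holds the luminal markers and few reads of the basal ones, its values are given with no test.

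The rest of the mitotic machinery, from lists that hold no member, had medians nearer to 0 than the 49 genes. Because members and lists were chosen with earlier results of these data known, that contrast is a description only. Among 29 other kinetochore genes tested, the median log2 fold change against eGFP was -0.41, 1 fell at the adjusted threshold (0.84% of all genes) and 9 were lower at an unadjusted p below 0.05 (10.7%). The 1 was HJURP, the chaperone that deposits CENPA, with 35.5 and 31.6 RPM with GIRK1, 87.8 and 81.6 RPM with eGFP and 65.8 RPM in wt replicate 2 (log2 fold change -1.38, SE 0.21, edgeR adjusted p = 0.0356). Among 31 other spindle and centrosome genes the median was -0.48, with 3 called lower and 15 at the unadjusted level. TACC3, which crosslinks kinetochore fibres, had -1.63 (SE 0.25, edgeR adjusted p = 0.0343), and SPAG5, a spindle protein known as astrin, had -1.48 (SE 0.25, edgeR adjusted p = 0.0449). The third, CEP55, a scaffold of abscission, had -1.35 (SE 0.23, edgeR adjusted p = 0.0451). The 13 other genes of mitotic entry had a median of -0.75, with 0 called and 7 lower at the unadjusted level.

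Lists farther from the spindle included medians on either side of 0. Against eGFP, 10.7% of all genes tested were lower and 8.13% higher at an unadjusted p below 0.05. The 16 genes of the anaphase-promoting complex had a median log2 fold change of 0.06 against eGFP, with 0 called and 2 lower at that unadjusted level. The 19 genes of cohesin and condensin had -0.13, with 0 called and 7 lower at that level. For the 12 regulators of the DREAM and MuvB complexes, which govern transcription of late cell cycle genes, the median was 0.12, with 0 called, 0 lower and 1 higher at the unadjusted level. The 30 genes of replication licensing and S phase had a median of -0.58 against eGFP and 0.01 against wt replicate 2. Between the controls, eGFP against wt replicate 2, it was 0.70. The eGFP libraries lay far apart for some of these genes and close together for others. RRM2 had 317 and 106 RPM with eGFP and 96.6 RPM in wt replicate 2. CDC45 had 48.4 and 51.2 RPM with eGFP and 32.4 RPM in wt replicate 2. The part of eGFP replicate 1 in these medians was not tested. Of these 30, 0 were called in any of the 3 comparisons, with 8, 0 and 0 lower and 0, 0 and 1 higher at an unadjusted p below 0.05. Medians against wt replicate 2 were -0.18 for the other kinetochore genes, -0.40 for spindle and centrosome, -0.56 for mitotic entry, 0.01 for the anaphase-promoting complex, -0.15 for cohesin and condensin and 0.06 for the DREAM and MuvB regulators, with 0 called in each. CENPT, HAUS3 and MCM2 did not pass the filter and KIF18B was not found. These lists and the 49 genes were not tested against each other.

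**Figure D5:**
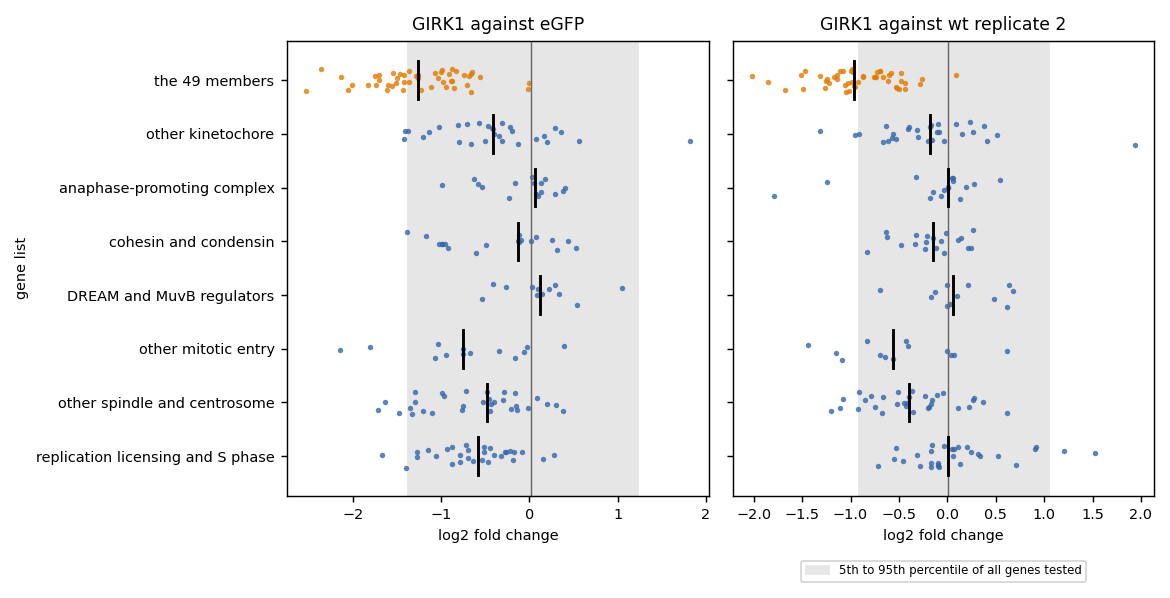
Log2 fold change of the genes of each list, GIRK1 against eGFP on the left and against wt replicate 2 on the right; each point is 1 gene, the black bar is the median of the list, and the grey band runs from the 5th to the 95th percentile of all genes tested. The 49 genes have medians of -1.26 and -0.97, the lists of the anaphase-promoting complex and of DREAM and MuvB lie near 0, and the replication list moves from -0.58 on the left to 0.01 on the right.

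Some markers moved with GIRK1 beside these genes. Among the 11 basal markers tested, LAMB3 fell and KRT17 rose at the adjusted threshold against eGFP, while the sum of the list was 15860 and 16183 RPM with GIRK1 and 16153 to 35746 RPM in the 3 controls. The leukocyte and stromal markers summed to 64.7 and 66.8 RPM with GIRK1 and 36.0 to 56.6 RPM in those controls, of which DCN rose at the adjusted threshold, from 0.780 and 3.71 RPM with eGFP to 27.0 and 25.2 RPM. Their part in the difference of the mitotic genes was not tested.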

How the data were processed

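Transcripts of 6 MCF10A libraries were measured with an AmpliSeq amplicon panel on an Ion S5 XL. The authors mapped reads to the panel's transcript reference with the Ion Torrent suite (version not given in the sources used here) and deposited, per amplicon, unnormalised read counts and RPM, the count scaled to the library total. How reads of near-identical copies were assigned is not stated. Groups were taken from the labels. Rows for 10 spikes held 0% of the reads and were left out.

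Counts were fitted with edgeR 4.0.16 (R 4.3.3, limma 3.58.1, TMM, filterByExpr, quasi-likelihood test, Benjamini-Hochberg over 11779 genes, threshold 0.05). The procedure had first been run on simulated counts with a single shared spread and changes larger than those of most members. That check does not cover smaller changes. The fit took 5 libraries, and group means were contrasted. The standard error is the log2 fold change divided by the square root of F. DESeq2 1.42.0, other scalings and filters, other sets of libraries, a replicate block and leaving out each library were alternatives. The authors' fold and variation rule was applied to RPM.

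The members and lists were chosen with earlier results of these data known, and the other lists were written from general knowledge. Values in each library of the main fit are given for the 2 most and the 1 least negative members of each role by log2 fold change against eGFP. They are given for all members in roles of up to 3 and for every member past the adjusted threshold. Genes of the other mitotic lists past it are given by log2 fold change, with library values for HJURP alone. RRM2 and CDC45, which were not called, were added outside this rule to show the eGFP libraries. Promoters are RefSeq windows of GRCh38.p14, and gene positions are from GENCODE release 29, matched by symbol. Single values of some marker genes are not reported here.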

Additional observations from a re-analysis of the deposited data

Results flagged for a closer look

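Members stood out in the library labelled wt replicate 1, which is left out of the main fit. A member is given here when the lower 95% bound of its level there was over 2-fold above the upper bound of the highest of the other 3 controls. CENPN had 195 RPM (lower bound 178 RPM) against at most 41.2 RPM in eGFP and wt replicate 2, although it was the member with the smallest difference between the GIRK1 and eGFP lines. PRC1 had 132 RPM (lower bound 118 RPM) against at most 50.5 RPM, and ECT2 had 97.8 RPM (lower bound 85.9 RPM) against at most 32.5 RPM. The bounds cover counting error only. The same library had luminal markers at 19195 RPM and basal markers at 402 RPM, and their part in these levels was not tested.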

How the results depend on the processing

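Against eGFP, the 10 members called lower became 6 with upper quartile scaling, 6 with at least 10 reads required in every library, 31 with no filter, 29 with DESeq2's test and 0 with all 6 libraries, and without one replicate the number ran from 2 to 36 and the median from -1.41 to -1.06. It was 8 with DESeq2 size factors, 9 with total reads and 8 with only the eGFP and GIRK1 libraries. All 10 were kept under no filter, DESeq2's test and without either eGFP replicate, whereas 1 was kept without GIRK1 replicate 1 and 2 without GIRK1 replicate 2. Over all genes the 99 called lower became 72, 50, 552, 450 and 0 in the same order as the first 5 settings. Without GIRK1 replicate 1 it rose to 123 while the members called fell to 2, and without eGFP replicate 2 it was 1625. Against wt replicate 2, the 0 members called became 5 with no filter (59 of all genes) and 5 with DESeq2's test (45 of all genes), and ran from 0 to 25 without one replicate (median -0.97 to -0.87). With both wt libraries the median was -1.35. For eGFP against wt replicate 2 the median was -0.094 with both wt libraries and 0.067 to 0.43 without one replicate, and 0 to 10 members were called higher. The cause of these shifts was not tested. CENPN turned positive against eGFP, at 0.034 with total reads, 0.022 with upper quartile, 0.011 with at least 10 reads and up to 0.078 without one replicate, where its lowest value was -0.100. The 46 members below the 3 controls became 46 to 48 without one replicate. That count cannot fall when a library is left out, so it is no check of the result. The rule of the methods could not be run without a replicate, since a coefficient of variation needs 2 libraries.

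The labels number the replicates 1 and 2 in each line, but say nothing of a shared batch or culture. The replicate differences of eGFP and GIRK1 correlated at 0.158 across the genes tested, which are not independent, and with 2 numbers this does not pair the libraries. When the number was entered as a replicate block, 22 members were called lower against eGFP (353 of all genes), among them all 10, and 1 against wt replicate 2.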
